A study of Mus musculus with 2 samples.

Results

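The nuclei described here were chosen by a gate on 6 genes, Zic1, Zic4, Ecel1, Irs4, Magel2 and Zfhx3, a set put forward as markers of GABAergic neurons that carry Zic genes and the imprinted gene Magel2. Chromatin accessibility was measured by scATAC-seq, in which the transposase Tn5 cuts open DNA and each sequenced fragment carries the barcode of its nucleus. For every nucleus the fragments over the bodies of the 6 genes and 2 kb upstream were counted (k) and compared with the number (E) that its total number of fragments gave at the mean rate over all nuclei, 282 marker fragments per 1000000. A nucleus was kept when its score, (k - E)/sqrt(E), was at least 3 and k was at least 5. The gate held 731 of 10329 nuclei (7.08%), which are called gated nuclei below, and the fragments at these 6 genes are therefore what chose them and not a finding about them.

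The study compared sham-operated mice with mice subjected to middle cerebral artery occlusion for 1 h followed by reperfusion, with both groups harvested at 48 h. All animals were wild-type young adult male C57BL/6J mice. Each condition was 1 library of nuclei from 4 pooled, flash-frozen brains without olfactory bulb and cerebellum. The stroke library came from the ipsilateral hemispheres, whereas the sham library came from whole brains of mice in which the filament was inserted without sustained occlusion. Surgery, side of the brain and library thus cannot be told apart in any difference between stroke and sham, and no comparison had a replicate. Values below carry 95% intervals (exact Poisson for counts and exact binomial for shares and ratios) that cover counting error only. Fragments of the same nucleus are not independent and animals were pooled. In 1 Mb windows away from the gate genes, the median gated nucleus varied around similar nuclei with 4.11 times the variance of Poisson counts. The intervals are thus likely too narrow. No p-value is given.

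As background, ZIC proteins are zinc finger transcription factors of the dorsal neural tube whose genes stay active in neurons of the septum, thalamus, hypothalamus and olfactory system. Magel2 is expressed from the paternal chromosome within the Prader-Willi region, chiefly in the hypothalamus, where Irs4, an adaptor of the insulin receptor, is also expressed. Ecel1 encodes a neuronal endopeptidase induced by nerve injury, and Zfhx3 a very large transcription factor with zinc fingers and homeodomains that is found in striatal, hypothalamic and suprachiasmatic neurons. GABAergic neurons make and load their transmitter through Gad1, Gad2 and Slc32a1.

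In the sham library 415 of 5949 nuclei were gated (6.98%, 6.34% to 7.65%), and in the stroke library 316 of 4380 (7.21%, 6.47% to 8.02%). The ratio of these shares, stroke over sham, was 1.03 (0.891 to 1.2), so no difference in the total share was detectable at these counts. With all nuclei of the microglia and myeloid-like cluster described below left out, 403 of 5876 sham and 236 of 3901 stroke nuclei were gated, a ratio of 0.882 (0.748 to 1.04). Of the barcodes called as nuclei by the authors' pipeline, 85.2% in sham and 50.1% in stroke passed the filter on fragments in peaks. Gated nuclei were slightly deeper than the others, with a median of 12378 against 11489 fragments in sham and 12702.5 against 11110 in stroke. Their share of fragments in peaks was lower, with medians of 35.1% against 39.7% in sham and 31.9% against 33.9% in stroke. Barcode sequences shared by both libraries numbered 34 among the nuclei kept, and no shared barcode was gated in both. Doublets were not removed.

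The sequences of 4 marker promoters are shown first because they are the regulatory DNA closest to the genes that chose the nuclei. Each covers 250 bases upstream of a RefSeq gene start on GRCm38, written 5′ to 3′ on the gene's strand, and capitals mark matches to the motifs named after them.
Zic1 promoter, chr9:91365769-91366018, minus strand: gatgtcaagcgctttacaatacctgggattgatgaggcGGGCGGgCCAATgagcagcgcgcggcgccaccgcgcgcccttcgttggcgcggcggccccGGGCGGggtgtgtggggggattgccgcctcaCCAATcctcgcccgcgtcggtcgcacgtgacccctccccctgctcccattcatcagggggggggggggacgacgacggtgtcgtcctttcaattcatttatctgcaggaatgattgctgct
Magel2 promoter, chr7:62376729-62376978, plus strand: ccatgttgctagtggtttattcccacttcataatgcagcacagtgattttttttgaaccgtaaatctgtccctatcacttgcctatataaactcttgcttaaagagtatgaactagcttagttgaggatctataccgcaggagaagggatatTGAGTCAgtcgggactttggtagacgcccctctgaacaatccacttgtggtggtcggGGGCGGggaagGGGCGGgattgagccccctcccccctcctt
Irs4 promoter, chrX:141725218-141725467, minus strand: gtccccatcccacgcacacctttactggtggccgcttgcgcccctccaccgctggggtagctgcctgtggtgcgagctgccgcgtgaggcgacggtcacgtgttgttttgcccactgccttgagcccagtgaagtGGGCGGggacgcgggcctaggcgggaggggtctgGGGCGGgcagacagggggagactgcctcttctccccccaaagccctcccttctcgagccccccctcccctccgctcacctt
Zfhx3 promoter, chr8:108714394-108714643, plus strand: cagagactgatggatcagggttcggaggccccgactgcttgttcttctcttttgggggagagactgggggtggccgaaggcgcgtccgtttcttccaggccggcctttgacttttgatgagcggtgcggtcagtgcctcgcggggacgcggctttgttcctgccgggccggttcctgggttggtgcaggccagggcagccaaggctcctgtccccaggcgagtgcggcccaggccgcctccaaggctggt

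The motifs searched on both strands were a ZIC core (CAGCAGG), a homeobox core (TAATTA), an E-box (CAGCTG), a proneural E-box (CAGATG), AP-1 (TGANTCA), CRE (TGACGTCA), the GC box (GGGCGG) and the CCAAT box (CCAAT). The Zic1 promoter held 2 GC boxes and 2 CCAAT boxes, the Magel2 promoter 2 GC boxes and 1 AP-1 match, and the Irs4 promoter 2 GC boxes. The Zfhx3 promoter held none of these letters. No match in capitals overlaps another. Among all 32851 RefSeq promoters, 32.7% held a GC box, 33.8% a CCAAT box and 6.75% an AP-1 match, and a match describes the sequence only.

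Over these windows, extended to 50 bases past the start, gated nuclei were more open than other nuclei at 5 of the 6 genes. At Zic1 51 fragments fell in the window, 4.23-fold the level of other nuclei (3.01 to 5.86), with 33 in sham (5.18-fold) and 18 in stroke (3.14-fold). Magel2 had 22 fragments (3.02-fold, 1.80 to 4.86), and 21 of them were from sham (4.71-fold) and 1 from stroke (0.36-fold, 0.00883 to 2.16). The Irs4 window held 13 fragments (7.05-fold, 3.26 to 14.6). At Ecel1 there were 12 (3.18-fold, 1.53 to 6.12). Zfhx3, whose RefSeq start lies inside the longer GENCODE model, had 16 (3.47-fold, 1.86 to 6.15), of which 9 were from sham and 7 from stroke. Zic4 had 1 fragment. These windows lie within the bodies and 2 kb upstream that the gate counted, so the ratios describe the gate.

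Levels over the whole gene bodies are given as CPM, the fragments of a gene per 1000000 fragments of the same set of nuclei. Zfhx3 (chr8:107942644-108961630, plus strand) had 6900 fragments in gated sham nuclei, 1296 CPM (1265 to 1327) against 160 CPM (157 to 163) in the other sham nuclei. In stroke it had 4471 fragments, 1055 CPM (1024 to 1086) against 197 CPM (193 to 201). Zfhx3 was thus 8.10-fold higher in the gated sham nuclei and 5.36-fold higher in the gated stroke nuclei, the widest ratio of the 6 genes in both libraries.
The 2 Zic genes lie beside each other and their models overlap, so a fragment in the overlap counts for both. Zic4 (chr9:91362413-91389348, plus strand) had 288 fragments and 54.1 CPM (48.0 to 60.7) in gated sham nuclei, 4.95-fold the others, and 170 fragments and 40.1 CPM (34.3 to 46.6) in gated stroke nuclei, 2.87-fold. For Zic1 (chr9:91358058-91365810, minus strand) the values were 18.8 CPM (15.3 to 22.8; 3.90-fold) in sham and 14.4 CPM (11 to 18.5; 2.35-fold) in stroke. Ecel1 (chr1:87147655-87156521, minus strand) was at 18.2 CPM (14.8 to 22.2; 3.41-fold) and 15.6 CPM (12 to 19.8; 3.02-fold). Irs4 (chrX:141710998-141725263, minus strand) was at 7.70 CPM (5.53 to 10.4; 3.18-fold) and 6.37 CPM (4.2 to 9.27; 2.20-fold). All of these were above the other nuclei in both libraries.
Magel2 (chr7:62377010-62381640, plus strand) differed between the libraries. In gated sham nuclei it had 51 fragments and 9.58 CPM (7.13 to 12.6) against 4.46 CPM in other nuclei, 2.15-fold. In gated stroke nuclei it had 14 fragments and 3.30 CPM (1.81 to 5.54) against 3.40 CPM, 0.970-fold, so that the gated stroke nuclei did not stand above the rest at this gene although it was part of the gate.

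**Figure D1:**
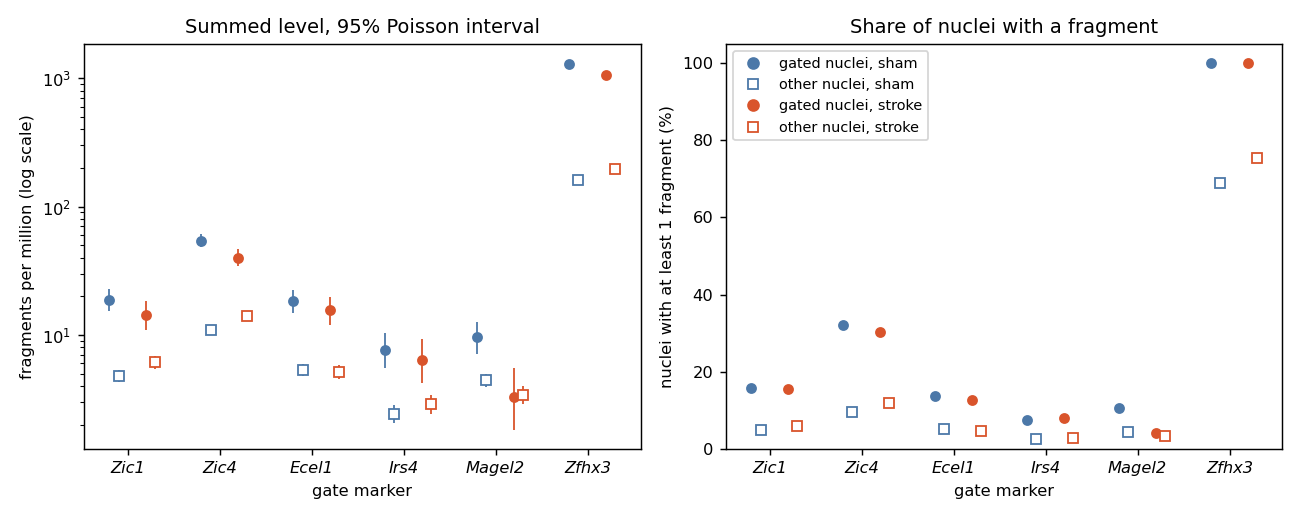
Levels of the 6 gate genes in gated nuclei (filled circles) and other nuclei (open squares) of the sham (blue) and stroke (red) library. The left panel gives CPM on a log scale with 95% Poisson intervals and the right panel the percent of nuclei with at least 1 fragment, where Zfhx3 reaches 100% of gated nuclei and Magel2 in stroke is at 3.30 CPM in gated and 3.40 CPM in other nuclei.

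Zfhx3 carried the gate. Of the gated nuclei's marker fragments 93.7% lay in Zfhx3, beside 89.9% over all nuclei kept. Its GENCODE model is 1018987 bp long against 4631 bp for Magel2, 7753 bp for Zic1 and 26936 bp for Zic4. Per kb of sequence counted, the Zfhx3 level of gated sham nuclei was 1.27 CPM and lay under those of Zic1 (1.93 CPM), Zic4 (1.87 CPM), Ecel1 (1.68 CPM) and Magel2 (1.44 CPM) and above that of Irs4 (0.473 CPM). In gated stroke nuclei Zfhx3 at 1.03 CPM per kb lay under Zic1 (1.48 CPM), Ecel1 (1.43 CPM) and Zic4 (1.39 CPM) and above Magel2 (0.498 CPM) and Irs4 (0.391 CPM). With fragments of Zfhx3 alone, 646 of the gated nuclei (88.4%) still passed, and 367 (50.2%) had no fragment at any of the other 5 genes. Of the rest, 210 nuclei had fragments at 2 of the 6 genes, 123 at 3, 27 at 4, 4 at 5 and 0 at 6. A gate on the 5 other genes held 54 nuclei, of which 24 were gated nuclei, and a gate on the marker promoters alone held 2. In gated sham nuclei 32.0% had a fragment at Zic4, 15.7% at Zic1, 13.7% at Ecel1, 10.6% at Magel2 and 7.47% at Irs4. The shares in other sham nuclei were 9.43%, 4.79%, 5.06%, 4.28% and 2.53%.

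Scores fell off gradually from the threshold. The median score was 5.21 in sham and 4.57 in stroke, 382 nuclei scored between 3 and 5, 302 between 5 and 15, and 47 at 15 or more. Those 47 nuclei, 32 from sham and 15 from stroke, lay in 12 of 17 clusters and held 21.5% of the Zfhx3 fragments of gated nuclei. The highest score, 58.3, belonged to a sham nucleus with 154 marker fragments where 6.40 were expected. Near the threshold 53 nuclei scored between 2.9 and 3.1. A stroke nucleus just inside had 10 marker fragments against 3.99 expected (score 3.01), and a stroke nucleus just outside had 12 against 5.19 (score 2.99).

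Leaving each gene out of the gate in turn gave a measure that the remaining gate had not used. Nuclei chosen without Zic1 had 3.14-fold the Zic1 level of other nuclei (2.62 to 3.74), and those chosen without Zic4 2.73-fold the Zic4 level (2.41 to 3.07), but the shared stretch keeps these 2 genes from being independent. With both left out, a choice made after the data had been seen, the gate held 713 nuclei, 670 of them gated nuclei, and the Zic1 and Zic4 locus was at 2.26-fold (1.99 to 2.56). It was at 2.62-fold (2.22 to 3.09) in sham and 1.86-fold (1.52 to 2.26) in stroke. Irs4 left out was at 1.99-fold (1.45 to 2.68), Ecel1 at 1.5-fold (1.18 to 1.89), and Zfhx3 at 1.37-fold (1.22 to 1.54). Magel2 left out was at 1.31-fold, with an interval that included 1 (0.968 to 1.75). In stroke alone the left-out levels of Ecel1 (0.968-fold) and Magel2 (0.804-fold) were at or under those of other nuclei. Over both libraries together the left-out ratio was thus highest at the Zic locus and lowest at Magel2, whereas in sham alone it was lowest at Zfhx3 (1.31-fold, with Magel2 at 1.65-fold).

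At Zfhx3 the excess extended beyond the gene. A flank from 500 to 100 kb upstream, chr8:107442645-107842644, which the gate did not count, was at 1.97-fold in gated nuclei (1.88 to 2.05), with 2.14-fold in sham and 1.76-fold in stroke. Downstream from 50 to 900 kb, chr8:109011631-109861630, the ratio was 1.96 (1.92 to 2.01). Regions 1500 to 2500 kb away were at 1.13-fold upstream (1.11 to 1.15) and 1.22-fold downstream (1.19 to 1.25). The flanks moved with the score. The upstream flank was at 1.57-fold in nuclei scoring 3 to 5, 1.83-fold at 5 to 15 and 5.76-fold (5.26 to 6.29) at 15 or more, beside gene body ratios of 4.25, 7.70 and 20.9.

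**Figure D2:**
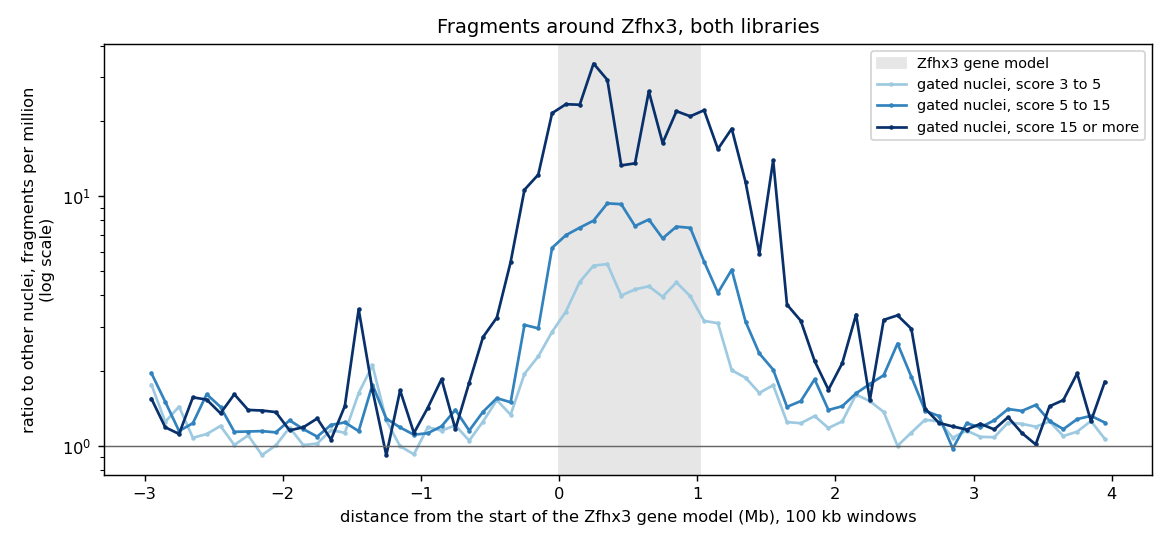
Ratio of CPM in gated over other nuclei (log scale) in 100 kb windows by distance from the start of the Zfhx3 gene model, both libraries together, for gated nuclei in 3 ranges of score. The excess spans the gene (grey) and its flanks, and the flank 500 to 100 kb upstream rises from 1.57-fold at scores of 3 to 5 to 5.76-fold at scores of 15 or more.

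Genes around Zfhx3 were looked at after this had been seen. Within 2 Mb, 61 genes besides Zfhx3 had enough fragments, and 45 (73.8%) were higher in gated nuclei of both libraries, with a median ratio of 1.31 in sham and 1.22 in stroke. Over all genes tested 32.2% were higher in both. Calb2, the calcium-binding protein calretinin of many interneurons, lies 1.18 Mb downstream and was at 33.8 CPM in gated against 14.9 CPM in other sham nuclei and at 30.9 against 13.5 CPM in stroke. Chst4, a sulfotransferase gene 1.07 Mb downstream, was at 2.38-fold in sham and 1.88-fold in stroke, and Pmfbp1, 0.53 Mb downstream, at 3.1-fold and 1.83-fold. Calb2, Chst4 and Pmfbp1 all lay above the median ratios of this neighbourhood. Calb2 was also among the leading genes of the Magel2-led cluster described below. The source of the higher levels of these genes was not tested.

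Within Zfhx3, a smaller share of the fragments of gated nuclei lay in the most open tiles. The fragments are those that the gate counted, so the values are a description. The gene was split into 1021 tiles of 1 kb, and the 51 most open in other nuclei held 30.1% of those nuclei's Zfhx3 fragments (29.4% to 30.7%) but 13.9% of the gated nuclei's (13.3% to 14.6%; 1584 of 11370). Since the other nuclei had chosen these tiles, the tiles were also chosen in other nuclei of 1 library and read in the other, an alternative added after seeing the data. The share was then 13.2% (12.4% to 14.0%) in gated against 30.2% (29.3% to 31.0%) in other sham nuclei and 14.0% (13.0% to 15.01%) against 26.4% (25.5% to 27.3%) in stroke. With the first choice of tiles it was 18% at scores of 3 to 5, 13.0% at 5 to 15 and 9.55% at 15 or more. The median length of fragments in Zfhx3 was 88 bp in gated and 96 bp in other nuclei.
The distal sites of 300 bp in the gene with most fragments in other nuclei were not detectably more open in gated nuclei. That choice favours a low ratio and could miss sites open mainly in gated nuclei. Together 5 such sites had 67 fragments in gated and 955 in other nuclei, a ratio of 0.837 (0.644 to 1.07). The strongest of them in gated nuclei is shown, since it had the most fragments and the highest ratio among them. It lies in an intron and had 23 fragments in gated and 211 in other nuclei (1.30-fold, 0.807 to 2.01). The sequence is mm10, plus strand, and capitals mark 2 CCAAT boxes, a motif found in 30.8% of 78142 open tiles of the same length.
Zfhx3 site 2, chr8:108790501-108790800: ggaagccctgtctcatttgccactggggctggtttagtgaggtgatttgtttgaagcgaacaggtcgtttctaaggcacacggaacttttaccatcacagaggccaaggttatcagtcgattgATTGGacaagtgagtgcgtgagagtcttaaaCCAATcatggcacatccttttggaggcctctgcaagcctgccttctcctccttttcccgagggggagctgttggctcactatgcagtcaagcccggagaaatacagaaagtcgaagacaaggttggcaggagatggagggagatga
Windows with a local excess were also counted elsewhere in the genome. Among 2441 autosomal windows of 1 Mb, more than 3 Mb from any gate gene, the median gated nucleus had 38 that scored 6 or more with at least 10 fragments, and the median other nucleus had 37. For nuclei of 8000 to 16000 fragments the medians were 42 and 42. Nuclei scoring 15 or more had a median of 49, and of 47 at that depth. Within clusters the gated nuclei had the higher median in 15 of 17, such as 64 against 44 in the Vmn1r233-led and 28 against 9 in the VLMC-like cluster, and they were also deeper in 14 of 17. At 8000 to 16000 fragments the medians were 40 against 44 in the Magel2-led and 51.5 against 42 in the spiny projection-like cluster. The source of the broad excess at Zfhx3 was not tested.

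The gated nuclei did not form a group of their own. Nuclei were clustered on all 5 kb bins except those within 100 kb of the gate genes, and clusters were named from marker lists where these led, or else by their leading gene. Among the 20 nearest neighbours of a gated nucleus, 16.4% were gated on average (16.6% in sham and 16% in stroke), against 5.35% for other nuclei. Clusters differed in their gated share, given below, and this contrast was not separated from that difference. At least 5 gated neighbours were found for 243 gated nuclei (33.2%), while 143 had none, and the most was 12.
The 731 nuclei were spread over all 17 clusters. The largest number, 232 (31.7%), lay in a cluster of 1016 nuclei led by Magel2, Irs4, Calb2, Dgkk and Gprin2, in which 22.8% of nuclei were gated. The microglia and myeloid-like cluster, phagocytes of the brain and blood, held 92 of its 552 nuclei, and 80 of these 92 were from stroke, as were 479 of the 552, so that its gated share was 16.4% in sham and 16.7% in stroke. Spiny projection-like nuclei, the GABAergic output neurons of the striatum, numbered 70 of 811. The highest shares were in small clusters. A pan-GABAergic-like cluster with Zic2, Zic1 and Zic4 among its leading genes had 42 of 116 nuclei gated (36.2%), and a cluster led by Slc17a6, the vesicular glutamate transporter of thalamus, hypothalamus and midbrain, had 34 of 99 (34.3%), 32 of them from sham, as were 96 of the 99. The Lhx6 lineage interneuron-like cluster, cortical interneurons of the medial ganglionic eminence, had 8 of 510 (1.57%). Other clusterings spread the gated nuclei likewise, with 310 of 1249, 201 of 848 and 193 of 1304 nuclei gated in the cluster that held most of them.
Zfhx3 levels over all nuclei of a cluster, gated or not, were highest in the clusters with the largest gated shares, which their gated nuclei help to set. They were 695 CPM in the pan-GABAergic-like, 673 CPM in the Slc17a6-led, 512 CPM in the Magel2-led, 411 CPM in the microglia and myeloid-like, 318 CPM in the spiny projection-like and 133 CPM in the Lhx6 lineage interneuron-like cluster. In the Magel2-led cluster Zfhx3 was at 515 CPM in sham and 504 CPM in stroke, and 22.7% and 23.1% of its nuclei were gated. That cluster held 683 sham and 333 stroke nuclei, so its lower number of gated nuclei in stroke went with the smaller number of nuclei in the cluster.

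**Figure D3:**
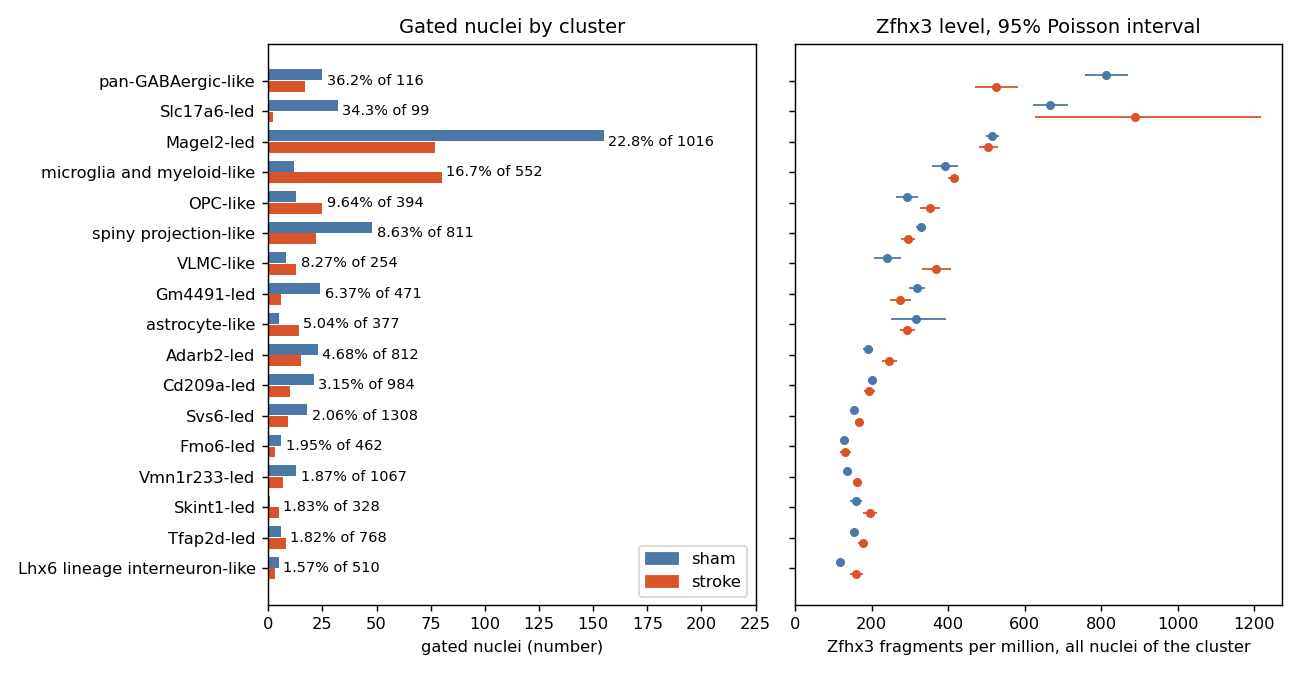
Left, gated nuclei in each of 17 clusters from the sham (blue) and stroke (red) library, with the percent of all nuclei of the cluster that were gated. Right, Zfhx3 CPM over all nuclei of the cluster with 95% Poisson intervals; the pan-GABAergic-like, Slc17a6-led and Magel2-led clusters had the highest gated shares and the highest Zfhx3 levels over both libraries.

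The label of GABAergic nuclei was then set against lists of cell type genes. The 8 pan-GABAergic genes summed to 242 CPM in gated and 182 CPM in other sham nuclei, a ratio of 1.33 (1.25 to 1.41), and to 239 against 177 CPM in stroke, a ratio of 1.35 (1.26 to 1.44). All 8 were above 1-fold in both libraries, beside 32.2% of all genes, and none was past 2-fold, beside 0.168% of all genes. Gad2, a GABA-synthesizing enzyme, was at 50.1 against 32.3 CPM in sham and 54.7 against 33.8 CPM in stroke. Gad1 was at 1.21-fold and 1.26-fold, Slc32a1, the vesicular GABA transporter, at 1.42-fold and 1.26-fold, Dlx1, a transcription factor of developing GABAergic neurons, at 1.64-fold and 1.19-fold, and Dlx2 at 1.62-fold and 1.52-fold. Set by the genes they carry, 74 gated nuclei (10.1%) passed the pan-GABAergic gate, against 7.79% of all nuclei.
Genes of cortical excitatory neurons were lower. The glutamatergic list was at 0.776-fold in sham (0.744 to 0.808) and 0.667-fold in stroke (0.633 to 0.703). Neurod6, a transcription factor of cortical pyramidal neurons, was at 0.285-fold and 0.309-fold, Neurod1 at 0.5-fold and 0.465-fold, and Slc17a7, the cortical vesicular glutamate transporter, at 0.528-fold and 0.595-fold. Slc17a6 went the other way in sham, where it was at 23.7 against 12.5 CPM (1.90-fold), and was level in stroke at 11.3 against 11.3 CPM.
Several lists of other cell types changed side between the libraries, and the microglia and myeloid and the cholinergic list were as far above other nuclei in stroke as the pan-GABAergic list. The spiny projection list was at 1.14-fold in sham (1.10 to 1.17) and 0.897-fold in stroke (0.856 to 0.940), and the microglia and myeloid list at 0.936-fold and 1.30-fold. The thalamic and midbrain list was at 1.23-fold in sham and 0.986-fold in stroke. Hypothalamic transcription factors were at 1.23-fold and 1.11-fold, Prox1 Adarb2 interneuron genes at 1.12-fold and 1.26-fold, and astrocyte genes at 0.934-fold and 0.823-fold. By the same kind of gate, 211 gated nuclei (28.9%) passed for a glial or vascular type, against 26.2% of all nuclei. The remaining lists, in sham and in stroke, were at 1.09-fold and 0.946-fold for Lhx6 lineage interneurons, 1.01-fold and 1.31-fold for cholinergic neurons, 0.925-fold and 1.05-fold for oligodendrocytes, 0.969-fold and 1.04-fold for their precursors (OPC), 1.07-fold and 1.07-fold for endothelial and mural cells, 1.10-fold and 0.882-fold for vascular and leptomeningeal cells (VLMC), 1.09-fold and 0.963-fold for ependymal cells, and 1.10-fold and 1.07-fold for septal and lateral ganglionic eminence genes. The gated nuclei as a whole thus held more fragments at GABAergic genes and fewer at cortical glutamatergic genes than other nuclei, but the ratios were small. Nuclei gated without Zfhx3 had the pan-GABAergic list at 0.946-fold in sham (0.767 to 1.16) and 1.74-fold in stroke (1.40 to 2.14). The label of a single GABAergic type was not borne out by these lists or by the clusters.

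**Figure D4:**
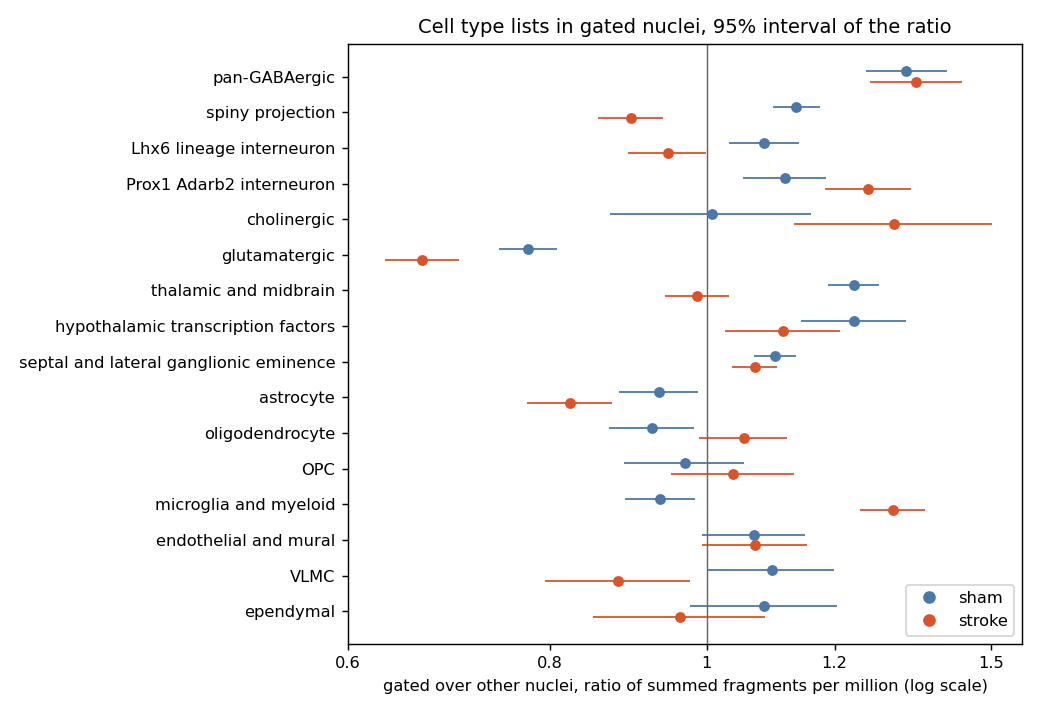
Ratio of summed CPM of 16 cell type lists in gated over other nuclei (log scale), in sham (blue) and stroke (red), with 95% intervals that cover counting error only. The pan-GABAergic list is at 1.33 and 1.35, the glutamatergic list at 0.776 and 0.667, and the microglia and myeloid list lies on either side of 1.

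Gated nuclei differed by the cluster they lay in. The values that follow compare them with all nuclei that were not gated, both libraries together. They are descriptions, since the clusters were built from fragments of the same nuclei. Ratios of the 6 gate genes were set by the gate, and bins within 100 kb of those genes were left out of the clustering. In the Magel2-led cluster, gated nuclei had high Zic4 (5.09-fold, 4.30 to 5.99), Ecel1 (5.30-fold), Irs4 (5.40-fold), Zic1 (3.43-fold) and Magel2 (3.04-fold, 2.06 to 4.36). Summed over these nuclei, Gad2 was at 1.88-fold (1.60 to 2.21) and Slc17a6 at 2.04-fold (1.56 to 2.62), while Slc17a7 was at 0.494-fold. Whether single nuclei carried genes of both transmitters was not examined. The whole cluster, gated or not, was also raised at Gad2 and Slc17a6, as given in the closing section. Nr2f2, an orphan nuclear receptor gene, was at 2.64-fold. Against the other nuclei of that cluster, Magel2 was at 0.874-fold and Zfhx3 at 5.13-fold.
In the pan-GABAergic-like cluster, the gate genes of gated nuclei were at 7.27-fold for Zic1 on 25 fragments, 6.78-fold for Zic4, 4.17-fold for Irs4 on 7, 2.33-fold for Magel2 on 6 and 1.78-fold for Ecel1 on 6. Zic2 was at 4.64-fold, Gad2 at 3.13-fold (2.42 to 3.99), Gad1 at 2.31-fold and Slc32a1 at 2.28-fold, and Slc17a6 was at 0.390-fold on 3 fragments (0.0803 to 1.14). They numbered 42, which is 25 from sham and 17 from stroke.
The 34 gated nuclei of the Slc17a6-led cluster differed from these at the transmitter genes. The gate gene Zic4 was at 6.44-fold, Slc17a6 at 8.78-fold (6.51 to 11.6) and Tcf7l2, a transcription factor of thalamic neurons, at 4.13-fold, while Gad1 was at 0.663-fold and Slc32a1 had 1 fragment.
Spiny projection-like gated nuclei had Gad2 at 3.1-fold and Drd2, the dopamine receptor of the indirect pathway, at 3.87-fold, with Zic4 at 1.23-fold, Zic1 at 1.05-fold and 3 fragments at Magel2. Microglia and myeloid-like gated nuclei had Csf1r, the receptor on which microglia depend, at 3.93-fold and C1qb, a complement gene of microglia, at 10.3-fold (7.51 to 14.0), with Gad1 at 0.885-fold, Zic4 at 2.05-fold and Magel2 at 1.11-fold.
The upstream flank of Zfhx3 was raised in gated nuclei of most of these clusters and was nearer to level in their other nuclei. It was at 1.80-fold against 1.05-fold in the Magel2-led, 2.27-fold against 0.942-fold in the spiny projection-like, 1.53-fold against 1.10-fold in the microglia and myeloid-like and 2.80-fold against 0.777-fold in the pan-GABAergic-like cluster. The Slc17a6-led cluster was the exception, with the flank at 0.822-fold in gated and 0.740-fold in other nuclei while the gene body was at 7.22-fold and 1.75-fold. Gated neighbours were also most common there (34.4%), where 34.3% of all nuclei of the cluster were gated. The pan-GABAergic-like (27.5% beside 36.2%), Magel2-led (25.1% beside 22.8%), microglia and myeloid-like (21.5% beside 16.7%) and spiny projection-like (8.57% beside 8.63%) gated nuclei followed. These values mostly tracked the gated share of the cluster.

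Relatives of the gate genes were described next. Zic2 was at 1.79-fold in sham and 1.24-fold in stroke and Zic5 at 2.04-fold and 1.15-fold. The Zic family list, gate genes included, summed to 3.18-fold (2.9 to 3.48) and 1.93-fold (1.72 to 2.16). The imprinted list, Magel2 included, was at 1.22-fold in sham (1.19 to 1.26) and 1.13-fold in stroke, with a median log2 ratio of 0.24 and 0.19 over 22 of 25 genes tested. Usp29 was at 1.55-fold and 1.24-fold, Nnat at 1.63-fold and 1.30-fold, Asb4 at 1.46-fold and 1.40-fold and Dlk1, a Notch pathway ligand, at 1.33-fold and 1.62-fold, while the Magel2 neighbours Ndn (1.17-fold and 1.15-fold), Snrpn (1.24-fold and 1.14-fold) and Ube3a (1.04-fold and 0.972-fold) were close to level. For 17 hypothalamic transcription factors tested, the median log2 ratio was 0.22 in sham and 0.10 in stroke, beside 0.02 and 0.01 over all genes. The GABA-A receptor subunits had medians of -0.14 and -0.18, and 20 neuropeptide genes medians of 0.04 and 0.08. Genes of the insulin and leptin receptor pathway summed to 1.01-fold and 1.05-fold with Irs4 among them, sex steroid and nuclear receptors to 1.04-fold and 1.02-fold, and neuropeptide processing enzymes with the Ecel1 relatives to 0.898-fold and 0.885-fold. The Zfhx and Tshz genes summed to 2.92-fold and 2.36-fold, a sum led by Zfhx3 itself.
Some members at either end of their own list, gate genes apart, are given over both libraries. Higher were the hypothalamic factors Six6 (1.86-fold) and Lhx9 (1.71-fold), the prolactin receptor gene Prlr (1.72-fold, 1.54 to 1.91) and the neuropeptide gene Gal (1.88-fold). Lower were Tshz3 (0.635-fold) and the neuropeptide genes Adcyap1 (0.605-fold) and Oxt (0.610-fold on 16 fragments). Of 17 hypothalamic factors tested, 14 were above 1-fold in sham and 11 in stroke. Past 2-fold higher in both libraries were 0 of them, beside 0.168% of all genes. Lhx9 was also among the leading genes of the Slc17a6-led cluster.

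Tested were 17847 genes with at least 20 fragments in gated nuclei, seen or expected from the level of other nuclei. Of these, 30 (0.168%) were past 2-fold higher and 18 (0.101%) past 2-fold lower in gated nuclei of both libraries. A gene could pass the limit through the side where it was higher, so the limit in part set these counts. Among the 30 were 5 of the 6 gate genes, as the gate itself set. The others with at least 20 fragments in each library that led the ranking by the lower of the ratios, given for sham and for stroke, were C1qb (2.80-fold and 3.01-fold; 35 and 51 fragments), Nlrp4c (3.11-fold and 2.77-fold), Calb2 (2.27-fold and 2.28-fold), the complement receptor gene C5ar2 (2.26-fold and 2.34-fold), the class I gene H2-Q6 (2.27-fold and 2.23-fold), Tifab (3.07-fold and 2.12-fold) and the T cell gene Cd3e (2.16-fold and 2.09-fold). They ranked among the gate genes, with C1qb and Nlrp4c above Zic1. Some of these are known from immune cells, but no list of immune genes was counted against all genes tested. C1qb was raised in gated nuclei of the microglia and myeloid-like cluster, given above, and also in those of the Magel2-led cluster (2.9-fold on 23 fragments, and 4.94-fold against the other nuclei of that cluster). With at least 20 fragments in each library, the lowest included Prom2 (0.449-fold and 0.454-fold), Tbata (0.462-fold and 0.502-fold), Fhl2 (0.522-fold and 0.525-fold) and Rtn4rl2, a Nogo receptor relative (0.533-fold and 0.506-fold). Of these only Prom2 was among the 18 genes past 2-fold lower, as was Neurod6 on 11 and 8 fragments.
Within the Magel2-led cluster and under the same kind of limit, gated against other nuclei gave 27 of 15249 genes past 2-fold higher (0.177%) and 35 lower (0.23%) in both libraries.

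Distal open tiles were ranked by the sham library alone and then read in stroke. Among 6359 tiles of 300 bp, over 2 kb from any gene start and 3 Mb from any gate gene, with at least 15 fragments in gated sham nuclei, the top 10 were at 8.04-fold in sham, which the ranking fixed. In the stroke library, which it had not used, the same 10 were at 1.84-fold (1.24 to 2.66; 34 fragments in gated and 206 in other nuclei), with 7 higher and 5 past 2-fold. With a minimum of 25 fragments in place of 15 the top 10 were at 1.14-fold in stroke (0.924 to 1.4), an interval that includes 1. Of all ranked tiles, 37.2% were higher and 1.05% past 2-fold in stroke. The top 100 were at 1.31-fold in stroke (1.2 to 1.43), with 68 higher and 19 past 2-fold.
The sequences of 2 tiles that were past 2-fold again in stroke are shown as mm10, plus strand, with capitals marking motif matches. Distal 1 is intergenic and had 16 fragments in sham and 3 in stroke, 15.5-fold and 8.37-fold (1.23 to 49.5), and none of the motifs. Distal 9 lies in an intron of Atp10a, a phospholipid flippase gene, and had 24 and 6 fragments, 5.91-fold and 2.09-fold (0.715 to 5.07). It holds 1 ZIC core, a motif found in 14.2% of open tiles and in none of the other top tiles.
Distal 1, chr15:86718301-86718600: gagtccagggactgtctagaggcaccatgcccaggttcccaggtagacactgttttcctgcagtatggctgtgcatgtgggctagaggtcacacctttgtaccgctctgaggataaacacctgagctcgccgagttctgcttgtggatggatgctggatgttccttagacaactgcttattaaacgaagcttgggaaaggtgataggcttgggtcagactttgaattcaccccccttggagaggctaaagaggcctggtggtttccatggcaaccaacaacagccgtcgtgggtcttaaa
Distal 9, chr7:58690201-58690500: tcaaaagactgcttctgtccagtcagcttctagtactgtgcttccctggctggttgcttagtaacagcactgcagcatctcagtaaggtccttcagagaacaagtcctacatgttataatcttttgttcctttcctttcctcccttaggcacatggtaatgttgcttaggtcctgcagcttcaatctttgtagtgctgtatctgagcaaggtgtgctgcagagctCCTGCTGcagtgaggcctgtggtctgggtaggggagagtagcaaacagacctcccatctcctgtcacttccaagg
The other tiles past 2-fold in stroke included distal 6, in an intron of Myo5b, at 8.21-fold in sham and 6.51-fold (2.17 to 17.9) in stroke. Tiles 2 and 4, in introns of Fars2 and Clstn2, had 0 fragments in gated stroke nuclei.

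Stroke was compared with sham among the gated nuclei to ask how they differed 48 h after occlusion. Of 17701 genes with at least 20 fragments, 649 (3.67%) were past 2-fold higher and 152 (0.859%) past 2-fold lower in gated stroke nuclei. The balance of that split depended on the processing. It was 815 higher and 93 lower when scaled to promoter fragments, 460 and 342 when nuclei were thinned to 5000 fragments and gated again, and 341 and 339 when only promoters were counted. Ratios of the gate genes describe the gate, since their fragments chose the nuclei in both libraries. Magel2 went from 51 to 14 fragments, 0.345-fold (0.176 to 0.632), Zic4 was at 0.741-fold (0.610 to 0.899) and Zic1 at 0.766-fold (0.548 to 1.06). Slc17a6, which the gate did not count, was at 0.478-fold (0.336 to 0.672). GABAergic genes were about level, with Gad1 at 0.991-fold, Gad2 at 1.09-fold (0.911 to 1.31), Slc32a1 at 0.774-fold (0.572 to 1.04), and 0 of the 8 past 2-fold in either direction. The mix of clusters also differed, and its part in these values was not tested. The microglia and myeloid-like cluster gave 12 of 415 gated sham nuclei and 80 of 316 gated stroke nuclei, the Magel2-led cluster 155 and 77, and the Slc17a6-led cluster 32 and 2.
Microglial genes had a median log2 ratio of 0.84 beside -0.08 over all genes. C1qa was at 3.77-fold and Csf1r at 1.97-fold (1.59 to 2.45). Without the microglia and myeloid-like cluster the median of that list was -0.04, and 311 genes were higher and 226 lower of 17245 (1.80% and 1.31%). The cluster was named by this same list, which in part fixed the fall of the median. The reactive astrocyte list, genes induced in astrocytes by injury, had 4 of 13 genes past 2-fold higher, beside 3.67% of all genes, Bcl3 (3-fold, 2.18 to 4.16), A2m (3.09-fold), Vim (2.86-fold) and Serpina3n (2.84-fold, 1.78 to 4.64), with a median of 0.38. Without that cluster 4 of 13 were past 2-fold higher, beside 1.80% of all genes, with a median of 0.39. Other nuclei moved at least as far on this list, from 126 CPM in sham to 211 CPM in stroke against 138 and 206 CPM in gated nuclei. The endothelial and mural list had a higher median, 0.65, with 1 of 7 genes past 2-fold higher. Outside the microglia and myeloid-like cluster it was at 0.48 with 0 of 7. The cholinergic list was at 0.57 with 1 of 5 and, outside that cluster, at 0.59 with 2 of 5. The shares over all genes were 3.67% and, outside that cluster, 1.80%. The astrocyte list had a median of 0.32 in gated nuclei, with 0 of 8 genes past 2-fold, and gated nuclei of the astrocyte-like cluster numbered 5 in sham and 14 in stroke. Together with the Gm4491-led cluster, in which astrocyte genes also led the lists, they numbered 29 in sham and 20 in stroke. Their part in the result was not tested. Of 14 hypoxia and glycolysis genes 2 were past 2-fold higher, beside 3.67% of all genes, and 0 of 14 were without the microglia and myeloid-like cluster, beside 1.80%. Hk2, a hexokinase of the hypoxic response, was at 2.49-fold (1.94 to 3.20), the hypoxia-induced peptide gene Adm at 2.14-fold and Socs3, a brake on cytokine signalling, at 2.35-fold (1.76 to 3.18).
The 18 immediate early and AP-1 genes, induced by neuronal activity, had a median of 0.05. Atf3, a transcription factor of injured neurons, was at 1.57-fold and Npas4, an activity-induced factor, at 0.646-fold. The 12 heat shock genes had a median of -0.11 and the 12 neuronal injury genes, Ecel1 included, a median of 0.04. None of these 3 lists had a gene past 2-fold, a count near the shares of all genes (3.67% higher and 0.859% lower). Slc5a7, the choline transporter gene of cholinergic neurons, was at 5.74-fold (2.49 to 15.4), also without the myeloid cluster (7 and 26 fragments, 6.68-fold).
The genes with the widest ratios had few fragments. Cyp2d9 went from 5 to 42 (10.5-fold, 4.18 to 34.2), while Zfp990 went from 1 to 24 (30.1-fold, 4.92 to 1239) and Ccl12, a monocyte-attracting chemokine, from 1 to 19 (23.9-fold, 3.79 to 991). At the other end Pnliprp1 went from 48 to 10 (0.262-fold) and Lect2 from 23 to 2 (0.109-fold, 0.0125 to 0.442).

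**Figure D5:**
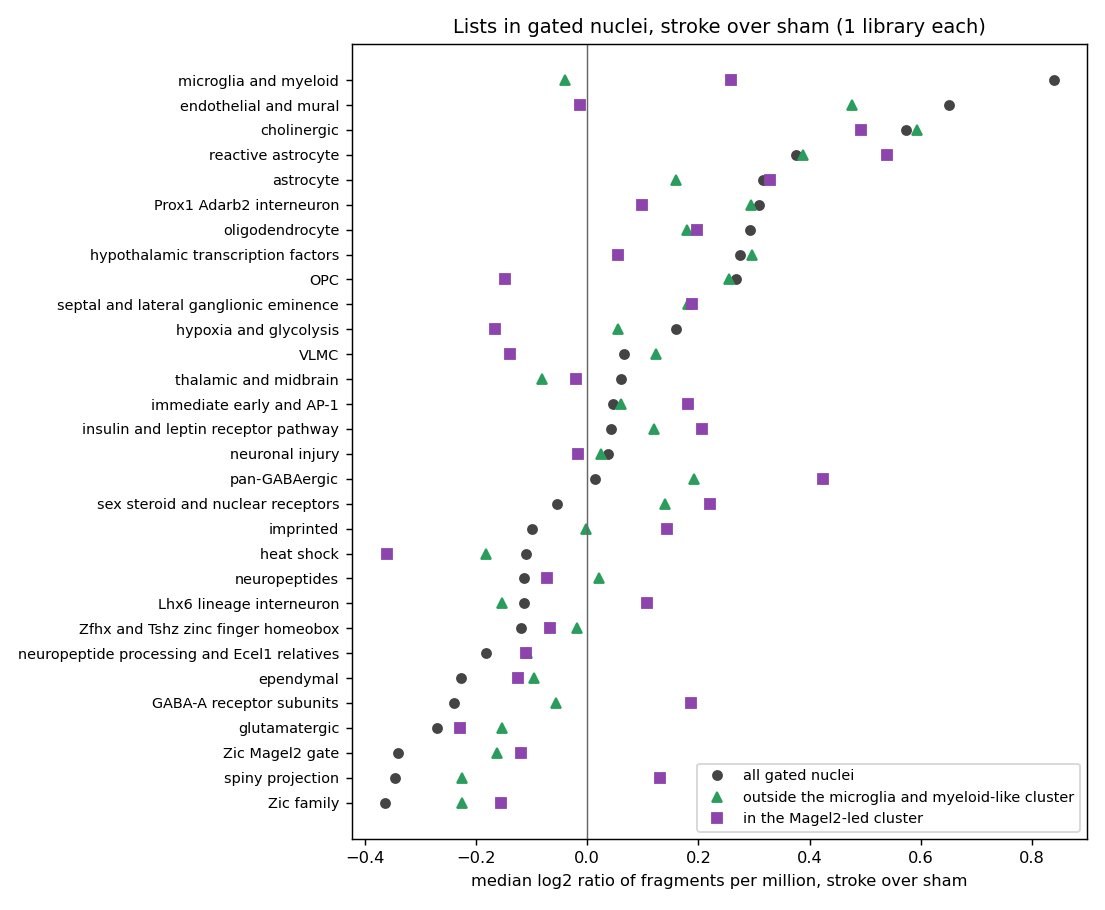
Median log2 ratio of CPM, stroke over sham, of the genes of each list in all gated nuclei (circles), in those outside the microglia and myeloid-like cluster (triangles) and in those of the Magel2-led cluster (squares), with 1 library per condition. The microglia and myeloid list falls from 0.84 to -0.04 once that cluster is left out, a fall in part fixed because the list named the cluster. The reactive astrocyte list is at 0.38 and 0.39.

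Within the Magel2-led cluster, 365 of 14872 genes (2.45%) were past 2-fold higher and 675 (4.54%) past 2-fold lower in the 77 stroke than in the 155 sham gated nuclei. The 8 pan-GABAergic genes had a median log2 ratio of 0.42 beside -0.03 over all genes, 7 of them above 0, with 1 past 2-fold higher and 1 lower. The gate genes, whose fragments chose these nuclei, had a median of -0.12 with 1 past 2-fold lower. Aoc1, an amine oxidase gene, went from 3 to 22 fragments (16-fold, 4.80 to 83.4) and Sptlc3, a subunit of the enzyme that starts sphingolipid synthesis, from 14 to 42 (6.54-fold), whereas Tmem45b went from 35 to 1 (0.0623-fold, 0.00153 to 0.371).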

How the data were processed

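Nuclei of 1 sham and 1 stroke library were profiled by scATAC-seq. Per the labels and methods, the authors processed reads with Cell Ranger ATAC 2.1.0 on mm10 and deposited deduplicated fragments and unnormalized per-barcode counts (read pairs, fragments in peaks). Barcodes called as cells were kept with 1000 to 100000 fragments in peaks and over 20% of fragments in peaks, which left 72184805 fragments in sham and 51555027 in stroke. Fragments were counted over GENCODE M21 gene bodies plus 2 kb upstream and scaled to 1000000 fragments (CPM). The gate genes, lists and comparisons were chosen with earlier results of these data known. In stroke over sham, genes needed 20 fragments over the gated nuclei compared. In gated over other nuclei they needed 20 in gated nuclei, seen or expected from the level of other nuclei. A count of 0 was set to 3 in ratios across all genes. With 1 library per condition no test was made, and past 2-fold is a rule of size.

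Clusters came from TF-IDF and SVD of 5 kb bins (components 2 to 30, 20 neighbours, leidenalg 0.10.2 at resolution 1, seed 1), with SciPy 1.17.1 in Python 3.11.15. The count steps were tested on simulated data. The genes named were the gate genes, the highest and lowest members of each list, the 15 highest and 10 lowest by the ratio of gated over other nuclei that held in both libraries with 20 fragments in each, the 10 highest and 10 lowest in stroke over sham, and the 10 top distal tiles, of which a selection is printed. Alternatives covered the gate, the gene models, depth and the clustering. The scRNA-seq data were not analysed here.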

Additional observations from a re-analysis of the deposited data

Results flagged for a closer look

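In 4 lists the gated nuclei lay above the other nuclei in 1 library and below them in the other with both 95% intervals clear of 1. Further lists changed side with an interval that included 1. The spiny projection list was at 1.136-fold in sham and 0.897-fold in stroke. The Lhx6 lineage interneuron list was at 1.085-fold in sham and 0.946-fold in stroke. The microglia and myeloid list was at 0.936-fold in sham and 1.303-fold in stroke, and the VLMC list, for vascular and leptomeningeal cells, at 1.097-fold in sham and 0.882-fold in stroke. With 1 library per condition the difference between the conditions was not tested. Beside these values, the gated nuclei of the spiny projection-like cluster numbered 48 in sham and 22 in stroke, and those of the microglia and myeloid-like cluster 12 and 80.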

How the results depend on the processing

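Of 140 pairs of a result and an alternative setting, 101 stayed within the counting interval or within 1.5 times the count, 35 moved and 4 reversed. Gates without Zic1, Zic4, Ecel1, Irs4 or Magel2 kept 93.7% to 100% of the gated nuclei. Results under those gates could therefore change little, and their staying shows little about stability. No paired analysis was possible because sham and stroke were measured in 1 library apiece, and for the same reason no library could be left out. The cause was not tested for any of these changes. The pan-GABAergic ratio of 1.33 in sham reversed to 0.165 (0.00418 to 0.920) under a gate on promoters alone and to 0.946 (0.767 to 1.16) under a gate without Zfhx3. Against other nuclei of the pan-GABAergic gate it was 0.319 in sham and 0.303 in stroke, a direction that the choice of those nuclei by the same 8 genes had fixed, so it shows nothing about stability. It moved to 1.23 in sham with only the nuclei that had 5 gated neighbours, which gave 1.47 in stroke, where it also moved from 1.35 to 1.74 without Zfhx3, 1.58 without nuclei of a glial or vascular gate, 1.54 without the myeloid cluster and 1.76 in the Magel2-led cluster.

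The ratio of gated shares, 1.03, became 0.861 at a threshold of 4 and 0.737 without Zfhx3. With all kept nuclei as the total, it was 0.795 (0.674 to 0.936) when gated nuclei of the myeloid cluster were not counted. It was 0.675 (0.507 to 0.892) when only those of the Magel2-led cluster were counted. With the total limited in the same way it was 0.882 (0.748 to 1.04) outside the myeloid cluster and 1.02 (0.765 to 1.35) within the Magel2-led cluster. It was 0 for promoters alone, a gate with 0 stroke nuclei that gave only this value and the sham ratio above. Genes past 2-fold in gated nuclei, 48 in all, became 78 without Zfhx3, 194 with supported nuclei, 179 against nuclei of the pan-GABAergic gate, 75 with promoters as activity, 18 at a minimum of 50 fragments and 311 in the Magel2-led cluster. Genes past 2-fold in stroke over sham, 801 in all, became 1871, 1513 and, at 50 fragments, 369. Their split of 649 higher and 152 lower became 605 and 1266 without Zfhx3, 881 and 632 with supported nuclei, 460 and 342 with nuclei thinned to 5000 fragments, 341 and 339 with promoters as activity, 410 and 285 without glial or vascular nuclei, 311 and 226 without the myeloid cluster and 815 and 93 scaled to promoter fragments.

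The gated share among neighbours, 16.4%, became 21.7% at a threshold of 2, 11.4% at 4, 14.2% with at least 8 marker fragments, 1.2% without Zfhx3, 15.3% thinned, 13.4% without glial or vascular nuclei, 15.6% with 50 neighbours, 17.2% with components 2 to 10, 14.9% with the RefSeq model of Zfhx3, 15.5% without scores of 15 or more, 15.6% without the myeloid cluster and 24.8% in the Magel2-led cluster. With Zic1 and Zic4 both out of the gate their ratios were 1.84 and 2.27, and the top distal tiles in stroke were at 1.14-fold (0.924 to 1.4) with a minimum of 25 fragments. The RefSeq model of Zfhx3, the gate without both Zic genes, the sets without the myeloid cluster or high scores, the Magel2-led cluster alone, the other clusterings and the limited totals were chosen after seeing the data.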

Other observations

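The RefSeq model of Zfhx3 is 682326 bp long and starts inside the GENCODE model. A gate with that model held 648 nuclei, of which 569 were among the 731 gated nuclei. Among barcodes that scored 3 or more, 9 had under 5 marker fragments and were left out by the gate. A further gate on microglial and myeloid genes held 61 of the gated nuclei (8.34%) beside 5.73% of all nuclei.

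The whole Magel2-led cluster, gated or not, was compared with all other nuclei in sham and in stroke. Magel2 was at 3.83-fold and 4.08-fold, Zic4 at 2.47-fold and 2.47-fold, Zic1 at 1.96-fold and 2.01-fold, and the imprinted genes Usp29 at 2.37-fold and 2.51-fold, Nnat at 2.36-fold and 2.06-fold and Zim1 at 2.03-fold and 2.96-fold. Gad1 was at 1.45-fold and 1.80-fold, Gad2 at 1.73-fold and 2.19-fold and Slc17a6 at 2.43-fold and 2.55-fold. The bins within 100 kb of the gate genes, Magel2 and the Zic genes among them, were left out of the clustering. Against all nuclei that were not gated, the imprinted list of 25 genes summed to 1.61-fold in sham and 1.74-fold in stroke in gated nuclei of the cluster and to 1.51-fold and 1.59-fold in its other nuclei. Magel2 over all gated nuclei was at 2.15-fold in sham and 0.970-fold in stroke.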
